A study of Mus musculus with 219 samples.

Results

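The subcortical maternal complex is a protein assembly beneath the cortex of the mouse oocyte and early embryo, and the 8 genes described here encode its core subunits Nlrp5 (also Mater), Ooep, Tle6 and Khdc3 (also Filia) and the associated proteins Padi6, Nlrp2, Nlrp4f and Zbed3. They were taken by symbol from both deposited count tables, where 8 of 32285 gene rows matched. The question of the series was how the place of sperm entry relates to the first cleavage and to the sister cells that it makes. Oocytes of 6- to 8-week-old B6C3F1 females received 1 sperm head of a CD1 male by intracytoplasmic sperm injection (ICSI), either opposite the meiotic spindle (contralateral), next to it (ipsilateral, spelled isolateral in the labels) or at the equator (equatorial). The genotype of every embryo was B6C3F1xCD1 at all sites, and one cryopreserved batch of sperm served throughout. The 2-cell embryos, called early by the study, were split into single blastomeres for sequencing (21 contralateral, 21 ipsilateral and 13 equatorial pairs). Some separated sisters were grown on into twin blastocysts (6, 7 and 6 pairs), and other embryos were grown intact to the blastocyst (11, 8 and 12). Blastomeres and blastocysts grew in KSOM medium with amino acids, and no embryo made without ICSI was analysed here.

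The core proteins hold each other in place: loss of Nlrp5 or Tle6 disperses the others, and mouse embryos from oocytes without Nlrp5, Ooep, Tle6 or Padi6 stop at early cleavage. Padi6, a member of the protein-arginine deiminase family, is needed for the fibrous cytoplasmic lattices in which the complex sits and which store maternal proteins. Transcripts of these genes are made in the growing oocyte and are inherited by the embryo, so that the RNA and the protein of a gene need not follow each other in time. Only RNA was measured here.

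The promoters of 4 members are shown because the results turn on these genes. Nlrp5 is the founding core gene, Ooep and Zbed3 differed between ICSI sites, and Khdc3 was the member with high counts in blastocysts. FIGLA, an oocyte transcription factor, binds E-boxes, and NOBOX, a homeodomain factor of the oocyte, binds TAATTG. Capitals mark E-boxes (CANNTG, which reads as CANNTG on both strands) and TAATTG on either strand, which is CAATTA when read from the other strand. The CAATTG of Khdc3 fits the E-box letters and shares AATTG with the NOBOX letters. Sequences are from RefSeq on GRCm38.p6, 5′ to 3′ on the strand of the gene, and hold those of the 250 bases before the RefSeq start that lie outside annotated exons.
Nlrp5 (chr7:23385639-23385888, + strand): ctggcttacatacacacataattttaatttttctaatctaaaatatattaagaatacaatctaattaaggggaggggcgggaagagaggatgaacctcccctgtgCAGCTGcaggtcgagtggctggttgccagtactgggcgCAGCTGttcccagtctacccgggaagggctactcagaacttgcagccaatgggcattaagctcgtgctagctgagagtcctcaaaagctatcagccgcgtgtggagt
Ooep (chr9:78378726-78378838, - strand): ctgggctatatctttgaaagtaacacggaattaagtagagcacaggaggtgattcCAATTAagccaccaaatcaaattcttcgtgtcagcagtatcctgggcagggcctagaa
Khdc3 (chr9:73102205-73102397, + strand): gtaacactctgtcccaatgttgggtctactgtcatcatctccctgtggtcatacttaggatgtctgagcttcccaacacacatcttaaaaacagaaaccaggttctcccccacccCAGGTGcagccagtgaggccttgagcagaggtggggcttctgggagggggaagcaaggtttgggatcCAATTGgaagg
Zbed3 (chr13:95323355-95323604, + strand): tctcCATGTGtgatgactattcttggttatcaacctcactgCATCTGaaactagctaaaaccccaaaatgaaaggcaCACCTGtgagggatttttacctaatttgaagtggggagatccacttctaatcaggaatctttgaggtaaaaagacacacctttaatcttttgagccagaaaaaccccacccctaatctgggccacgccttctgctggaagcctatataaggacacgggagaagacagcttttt
The printed stretches of Ooep and Khdc3 are 113 and 193 bases long and leave out the exonic part of the window. That of Khdc3 lies before the RefSeq start but inside the gene as annotated by GENCODE, which starts at chr9:73101836. Over the whole 250 bases there were 2 E-boxes for Nlrp5, 1 for Ooep, 5 for Khdc3 and 3 for Zbed3, and 1 copy of CAATTA for Ooep. Of the 32851 RefSeq promoter windows of 250 bases, 66.2% held an E-box, 12.2% held 3 or more, and 7.17% held TAATTG on either strand. A match of letters is a description of the sequence and not a binding site.

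The genes lie on 5 chromosomes (GRCm38). In the core, Nlrp5 (ENSMUSG00000015721) spans chr7:23385889-23441922 on the plus strand, Ooep (ENSMUSG00000032346) chr9:78376109-78378725 on the minus strand, Tle6 (ENSMUSG00000034758) chr10:81590904-81601073 on the minus strand, and Khdc3 (ENSMUSG00000092622) chr9:73101836-73104438 on the plus strand. Padi6 (ENSMUSG00000040935) spans chr4:140727355-140742643, Nlrp2 (ENSMUSG00000035177) chr7:5298547-5351035 and Nlrp4f (ENSMUSG00000032999) chr13:65177111-65205977, all on the minus strand, and Zbed3 (ENSMUSG00000041995) chr13:95323612-95337841 on the plus strand. Reads were counted without strand. Khdc3 shares 2014 exonic bases with the read-through gene model Gm20509 on the same strand, which has no row in the tables. Nlrp2, Nlrp4f and Nlrp5 belong to a gene family, and reads falling in stretches shared within it may be split between genes or lost. How many such reads there were was not tested, and their levels are uncertain to that extent.

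The counts of both sisters were added to give 1 value per 2-cell embryo, and levels are given as CPM, the counts of a gene per 1e6 counts of the embryo. The 55 embryos held 1255481 to 3976094 counts, with a median of 2675357 after contralateral, 3050508 after ipsilateral and 2179479 after equatorial ICSI. Twin pairs held 1676976 to 3095134 counts and intact blastocysts 234099 to 1254428, of which 5 were under 400000. Genes detected per blastomere, averaged over both sisters, had medians over embryos of 12072.5, 12103 and 11392.5 for the 3 sites in the same order. Equatorial embryos were thus both shallower and poorer in detected genes. Their mitochondrial share of counts, averaged likewise, was also lowest, with medians of 1.61%, 1.497% and 1.24% in that order. With the 48 pairs under a mitochondrial limit of 2% the members called were the same in number (2 and 1 against equatorial embryos). The labelled stages were checked against marker genes: Gdf9, an oocyte growth factor, was counted in all 55 2-cell embryos at a median of 306 CPM, and Cdx2, a trophectoderm factor, went from a median of 0 in 2-cell embryos to 187 in twin and 60.1 in intact blastocysts. Summed markers of embryonic genome activation (9 genes) stood at 595 to 1691 CPM in 2-cell embryos. Among them Zscan4d was counted in all 55, at 15.9 to 425 CPM with a median of 187. The paper instead reports Zscan4 as absent from all 110 blastomeres and takes this as a sign of the early 2-cell phase. The reason for this difference was not tested. Summed markers of cumulus cells (9 genes) stood at 0 to 39.1 CPM in 2-cell embryos with a median of 7.96, and Amh was at 0 in all 55. A CPM value is a share of the counts, so fewer transcripts of a gene and more RNA of other genes cannot be told apart. P-values measure the spread between the embryos sampled, which the labels do not assign to females or injection days.

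All 8 genes were present at the 2-cell stage, and Zbed3, a zinc finger protein of the complex that takes part in spindle positioning, was by far the most abundant. Its level was 2220 CPM in the lowest embryo, 3030 in the median and 4045 in the highest (n = 55), which is a median of 73.1% of the summed CPM of the 8 genes. Per length of transcript (TPM, length-scaled counts per 1e6), Zbed3 had a median of 4314 and stood at rank 8 among all genes. It also had the lowest coefficient of variation of the members, 16.1% over the 55 embryos, against a median of 60.2% over all genes tested. Zbed3 averaged 4007 counts per blastomere and the median gene 34.5, so the 2 values also differ in counting error. No coefficient was computed for genes of a like count.

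The remaining order on the TPM scale was Nlrp4f (median 429), Ooep (266), Padi6 (123), Nlrp5 (117.1), Tle6 (83.6), Khdc3 (39.3) and Nlrp2 (37.3). Zbed3 exceeded Nlrp4f, Nlrp4f exceeded Ooep, and Ooep exceeded Padi6 in 55 of 55 embryos each. Padi6 and Nlrp5 could not be ordered, since Padi6 was higher in 32 of 55, and neither could Khdc3 and Nlrp2, with Khdc3 higher in 31 of 55. Nlrp5 exceeded Tle6 in 44 of 55 embryos and Tle6 exceeded Khdc3 in 51 of 55. The 4 core genes were thus not the most abundant transcripts of the group.

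In CPM, Nlrp5, the NLR family protein of the core, ranged from 87.3 to 274 with a median of 171 (n = 55). Ooep, a KH-domain protein of the core, ranged from 68.5 to 321 with a median of 169. Tle6, a transducin-like co-repressor relative, ranged from 18.4 to 192 with a median of 77.2. These core genes were counted in every 2-cell embryo and in each of the 110 single blastomeres. Khdc3, the KH-domain protein known for guarding euploidy, ranged from 0 to 68.998 with a median of 23.9, and no count of it was found in 1 equatorial embryo. Its coefficient of variation, 60.1%, was the highest of the 8 and close to that of a typical gene. Padi6 ranged from 40.1 to 165 (median 94.1), Nlrp2 from 3.35 to 98.8 (median 38.1) and Nlrp4f, an oocyte-specific NLR protein, from 211 to 1007 (median 501). Khdc3 and Nlrp2 lacked counts in 4 and 3 of the 110 blastomeres, with a median of 28.5 and 47.5 counts per blastomere, so their values carry the largest counting error.

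**Figure D1:**
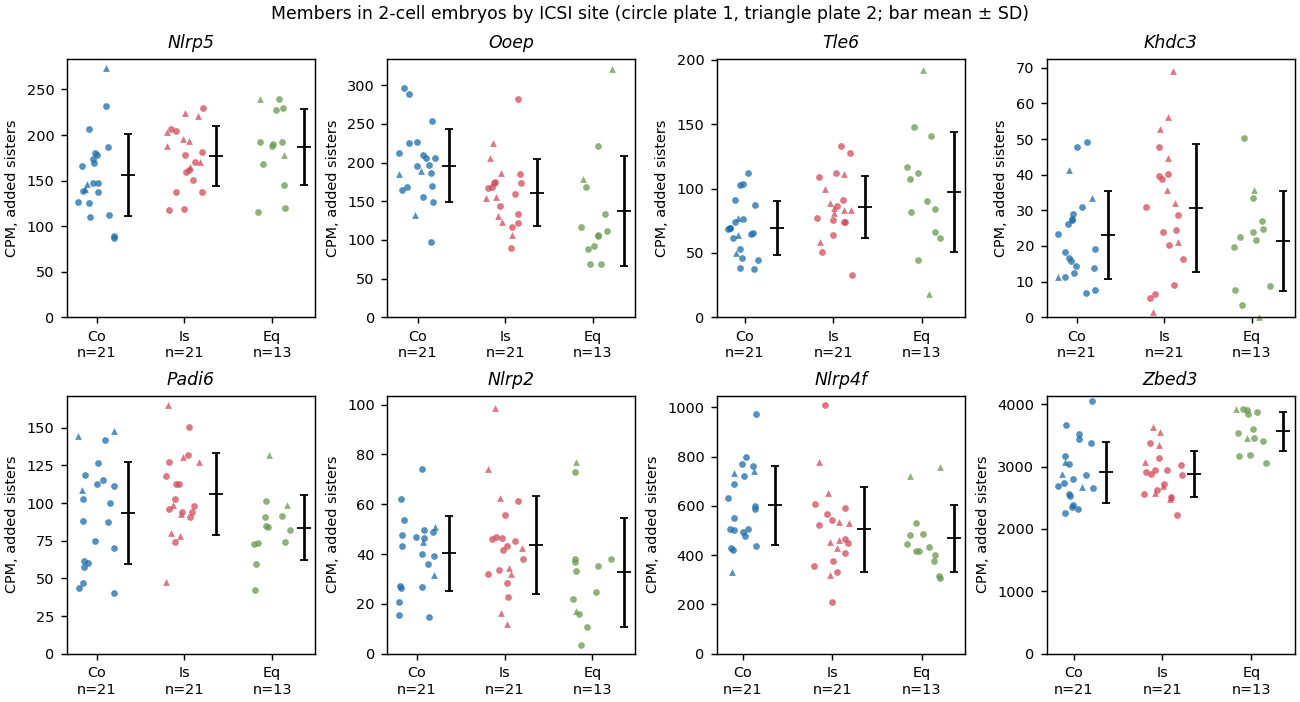
Level of each gene in 2-cell embryos (y axis, CPM of the counts added over both sisters) after contralateral (Co, n = 21), ipsilateral (Is, n = 21) and equatorial (Eq, n = 13) ICSI. Each point is an embryo, circles are plate 1 and triangles plate 2, and bars give the mean ± SD; the equatorial embryos sit high for Zbed3 and low for Ooep on plate 1.

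Zbed3 was lower after ICSI at either pole than at the equator. The contralateral embryos ranged from 2248 to 4045 CPM with a median of 2805, the ipsilateral embryos from 2220 to 3627 with a median of 2877, and the equatorial embryos from 3049 to 3921 with a median of 3539. The groups overlapped, but 14 of 21 contralateral and 15 of 21 ipsilateral embryos lay below the lowest equatorial embryo. In edgeR's quasi-likelihood test with plate as a covariate, the log2 fold change against equatorial was −0.30 ± 0.07 (SE; adjusted p = 0.00196) for contralateral and −0.33 ± 0.07 (adjusted p = 0.00219) for ipsilateral ICSI. Both comparisons use the same 13 equatorial embryos. On plate 1 alone edgeR gave −0.27 (adjusted p = 0.0116) and −0.33 (adjusted p = 0.00774), and on plate 2 the 2 equatorial embryos, at 3456 and 3921 CPM, lay above the 3 contralateral ones, at 2669 to 3069, and overlapped with the 8 ipsilateral ones, at 2479 to 3627. With total count and detected genes as covariates in edgeR the contralateral difference was −0.19 (adjusted p = 0.0219) and the ipsilateral difference was −0.14 and no longer passed the threshold (adjusted p = 0.349). Equatorial embryos had the lowest median depth, and the part of depth in the difference was not tested further.

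Ooep was the only member that was higher after contralateral than after equatorial ICSI at the threshold. Its level ran from 97.3 to 297 CPM with a median of 195 in contralateral embryos, from 89.7 to 283 with a median of 160 in ipsilateral embryos, and from 68.5 to 321 with a median of 111.1 in equatorial embryos. The single highest embryo was equatorial and so were the lowest, yet 20 of 21 contralateral embryos lay above the equatorial median. The edgeR log2 fold change, contralateral against equatorial, was 0.54 ± 0.16 (SE; adjusted p = 0.0138), and that of ipsilateral against equatorial was 0.20 ± 0.16 (adjusted p = 0.528). The plates disagreed in direction: on plate 1, 18 contralateral embryos had a median of 201.3 CPM and 11 equatorial ones 106.2 (edgeR log2 fold change 0.81, adjusted p = 0.00031), whereas on plate 2 the 2 equatorial embryos held 179 and 321 CPM and the 3 contralateral ones 132 to 190. A rank-sum test on added TPM with adjustment over all genes gave an adjusted p of 0.0705.

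Of the 8 genes tested, contralateral and equatorial embryos thus differed in 1 higher (Ooep) and 1 lower (Zbed3), where 13.2% of all 13141 genes tested were called. In the ipsilateral comparison 1 of the 8 was called (Zbed3, lower), where 6.65% of all genes were. Between contralateral and ipsilateral embryos edgeR called 0% of the 13141 genes, 555 of which had an unadjusted p under 0.05; by DESeq2 it was 0 genes, with 683 at an unadjusted p under 0.05. The median log2 fold change of the 8 genes was 0.12 for contralateral and 0.13 for ipsilateral against equatorial ICSI, and that of all genes was within 0.02 of 0 in each.

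Nlrp4f did not pass the threshold in the contralateral comparison with both plates. Contralateral embryos ranged from 331 to 973 CPM (median 586), ipsilateral embryos from 211 to 1007 (median 465.5) and equatorial embryos from 308 to 756 (median 432). The ranges overlapped widely, and 18 of 21 contralateral embryos lay above the equatorial median. The edgeR log2 fold change was 0.38 ± 0.15 (adjusted p = 0.0722) for contralateral and 0.06 ± 0.15 (adjusted p = 0.879) for ipsilateral against equatorial ICSI. As for Ooep, plate 2 went the other way from plate 1: its 2 equatorial embryos held 720 and 756 CPM, against 331 to 743 in its 3 contralateral ones, while edgeR on plate 1 alone gave 0.54 (adjusted p = 0.00865). DESeq2 gave an adjusted p of 0.0432.

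Nlrp5 and Tle6 tended to the opposite side, with no call. Nlrp5 had a median of 147 CPM after contralateral (87.3 to 274), 178 after ipsilateral (117.7 to 229) and 190 after equatorial ICSI (115.5 to 240.0). The contralateral against equatorial log2 fold change in edgeR was −0.26 ± 0.12 (adjusted p = 0.139). Tle6 had medians of 68.2 (37.7 to 112), 83.3 (32.5 to 133) and 90.2 CPM (18.4 to 192) in the same order, and its log2 fold change was −0.50 ± 0.19 (adjusted p = 0.0687). The equatorial group held both the lowest and the highest Tle6 value, and the 2 of them on plate 2 were these extremes.

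Khdc3, Padi6 and Nlrp2 showed no difference between sites at this depth. For contralateral against equatorial ICSI the edgeR log2 fold change was 0.09 ± 0.37 (adjusted p = 0.930) for Khdc3, 0.16 ± 0.16 (adjusted p = 0.609) for Padi6 and 0.32 ± 0.27 (adjusted p = 0.50) for Nlrp2. For ipsilateral against equatorial ICSI it was 0.37 ± 0.39 (adjusted p = 0.680), 0.29 ± 0.16 (adjusted p = 0.338) and 0.35 ± 0.27 (adjusted p = 0.514). The standard errors of Khdc3 and Nlrp2 were several times that of Zbed3, so only far larger differences could have passed for them. The widest change in either direction between the poles was that of Ooep, 0.34 ± 0.14 (unadjusted p = 0.0166 in edgeR, adjusted p = 1.00), followed by Nlrp4f at 0.32 ± 0.13 (unadjusted p = 0.0177 in edgeR, adjusted p = 1.00).

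**Figure D2:**
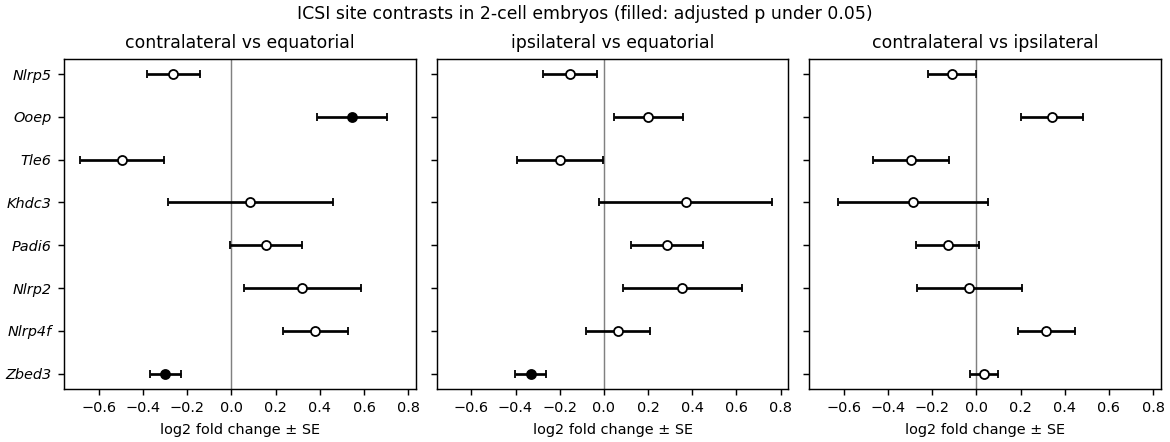
Change of each gene between ICSI sites in 2-cell embryos (x axis, log2 fold change ± SE from edgeR; 1 panel per pair of sites). Filled points passed an adjusted p of 0.05: Ooep (0.54) and Zbed3 (−0.30) between contralateral and equatorial ICSI, and Zbed3 (−0.33) between ipsilateral and equatorial ICSI.

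Genes around the complex were read from lists by role, each count to be set against the 13.2% of all genes called between contralateral and equatorial and the 6.65% called between ipsilateral and equatorial embryos. Of the 8 other oocyte Nlrp genes tested, 2 rose after contralateral against equatorial ICSI, Nlrp9a (log2 fold change 0.60 ± 0.13; edgeR adjusted p = 0.000668) and Nlrp9c (0.63 ± 0.10; edgeR adjusted p = 1.24e-05), and 0 fell, with a median of 0.41 and a positive sign in 8 of 8. The same 2 were higher after ipsilateral ICSI (0.60 and 0.45). Of the 5 lattice partners and cargo proteins, 3 rose after contralateral ICSI: Ube2d3, a ubiquitin-conjugating enzyme, by 0.35, Skp1a, a subunit of SCF ubiquitin ligases, by 0.43, and Cfl1, the actin-severing protein cofilin, by 0.40. Uhrf1 (−0.26, adjusted p = 0.145 in edgeR) and Dnmt1 (−0.05, adjusted p = 0.913), the DNA methylation proteins stored with the complex, did not pass. Of the 5 Khdc and Padi relatives tested 1 was called, Khdc1b at −0.20, and of the 4 oocyte regulators 1, Taf4b at −0.43; Nobox itself was at 0.05 (adjusted p = 0.938). Among 15 other maternal genes 5 rose, with Oosp2 (0.79) and Dazl (0.72) in the lead, and 1 fell, Gdf9 (−0.31). Of 9 markers of embryonic genome activation 2 rose after contralateral ICSI, Zscan4f by 2.07 and Zscan4d by 1.03, and 0 fell at the threshold. The 9 had a median of −0.07 with a positive sign in 4, and their part in the members' differences was not tested. After ipsilateral against equatorial ICSI 2 of 9 were higher, as were 2 of 15 maternal genes and 1 of 5 lattice partners and cargo. Of the 5 Khdc and Padi relatives 1 was lower there, and 0 of the 4 oocyte regulators were called.

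Sister blastomeres held similar amounts of the abundant members of the complex and less similar amounts of Khdc3 and Nlrp2. The root mean square (RMS) of the log2 ratio of CPM between sisters was 0.29 for Nlrp4f, 0.30 for Zbed3, 0.50 for Ooep, 0.63 for Nlrp5, 0.75 for Padi6 and 1.04 for Tle6 over 55 pairs. For Nlrp2 it was 1.88 and for Khdc3 2.04 (54 pairs with a count), and the median over all 13141 genes tested was 2.33. As a typical fold between sisters this is a median of 1.14 for Nlrp4f and Zbed3, 1.23 for Ooep, 1.35 for Nlrp5, 1.36 for Tle6 and Padi6, 1.66 for Nlrp2 and 1.94 for Khdc3, against 2.22 for a typical gene. Genes of a like count (within 1.5-fold) had a median RMS of 0.32 around Nlrp4f, 0.65 around Ooep, 0.64 around Nlrp5, 0.95 around Padi6, 1.11 around Tle6, 1.88 around Nlrp2 and 2.51 around Khdc3, each over 419 to 2362 genes. Nlrp2 lay at this median and the 6 others under it, and with every complete pair Nlrp2 lay above it (2.49 against 2.12). Around Zbed3 only 6 genes had a like count, and Zbed3 itself is among these 6. Their median was 0.24 against 0.30 for Zbed3, and 66.7% of the 6 lay below Zbed3 (50% on plate 1). Every set of like count includes the member itself, which weighs on so small a set.

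Counting noise alone was far smaller than the measured spread in every member. Drawing the same counts at random between sisters would give an RMS log2 ratio of 0.03 for Zbed3, 0.08 for Nlrp4f, 0.14 for Nlrp5, 0.15 for Ooep, 0.20 for Padi6, 0.22 for Tle6, 0.35 for Nlrp2 and 0.47 for Khdc3. Expressed as a mean squared deviate, which is 1 where counts scatter by chance alone, the spread was 87.7 for Zbed3 and 9.67 for Ooep, and between 12.3 and 18.1 for the 6 others, where the median gene had 14.9. Zbed3 averaged 4007 counts per blastomere, and the 6 genes of a like count, Zbed3 included, had a median deviate of 36.6. Nlrp5 (18.1) and Tle6 (17.8) also lay above the median deviate of genes of a like count (16.1 and 17.5). Ooep, Khdc3, Padi6, Nlrp2 and Nlrp4f lay below theirs. The libraries carry no molecular identifiers, reads copied by PCR are not independent molecules, and losses of RNA before copying add to the spread; how much of it is amplification and how much lies between the cells was not tested.

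**Figure D3:**
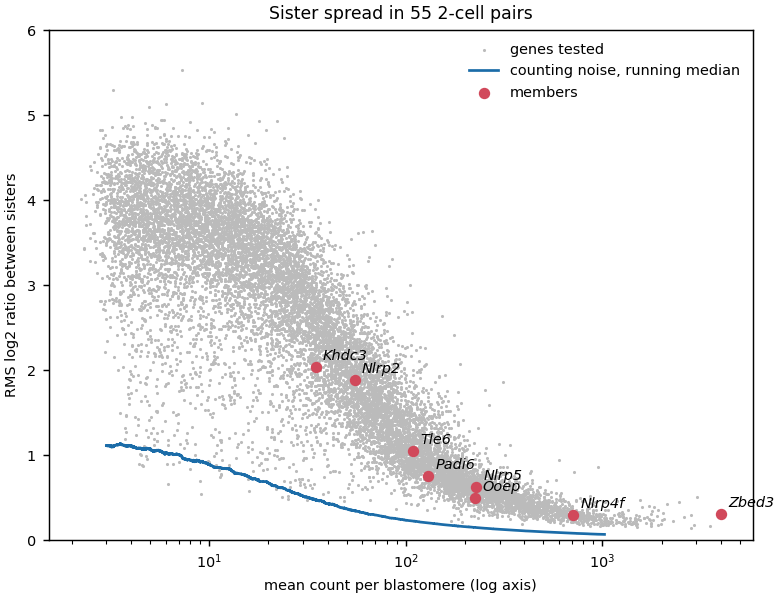
Root mean square log2 ratio between sister blastomeres (y axis) against mean count per blastomere (x axis, log scale) for every gene tested (grey) and the 8 members (red, named), with the spread that counting alone gives (blue line, running median). Zbed3 lies at the right edge, past the end of the blue line, and the other 7 members lie within the grey cloud and above the line.

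Sisters resembled each other more than unrelated blastomeres did for some members. Against 1272 pairings of blastomeres from different embryos of the same site and plate, the RMS log2 ratio of true sisters was 0.490 times as large for Nlrp4f, 0.743 for Ooep, 0.805 for Zbed3, 0.868 for Khdc3 and 0.871 for Padi6. For Nlrp5 (0.945), Tle6 (0.985) and Nlrp2 (1.06) sisters were about as far apart as strangers. These ratios are descriptions, since unrelated pairings reuse the same blastomeres. They were computed for the members only, so whether a ratio is usual for a gene of its count was not tested.

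The ICSI sites were also compared for how far the sisters lay apart, and no member passed the adjusted threshold. In limma on the absolute log2 ratio, 0 of the 8 members were called for contralateral against equatorial ICSI, where 0.304% of the 13141 genes were, and 0 of 8 for ipsilateral against equatorial, where 0.312% were. Between the poles 0% of the genes were called, with 672 at an unadjusted p under 0.05. At an unadjusted p under 0.05, the ratio was smaller after contralateral than after equatorial ICSI for Ooep (difference −0.28 ± 0.11; limma adjusted p = 0.316) and Nlrp2 (−1.04 ± 0.44; limma adjusted p = 0.387). After ipsilateral against equatorial ICSI it was smaller at an unadjusted p under 0.05 for 4 of the 8: Tle6 (−0.73 ± 0.24; limma adjusted p = 0.151), Nlrp5 (−0.33 ± 0.14; limma adjusted p = 0.297), Ooep (−0.26 ± 0.11; limma adjusted p = 0.332) and Nlrp2 (−0.98 ± 0.45; limma adjusted p = 0.388). Over all genes 1269 (contralateral) and 1487 (ipsilateral) of 13141 had an unadjusted p under 0.05, and both comparisons share the equatorial pairs. Between the poles Tle6 was at 0.54 ± 0.21 (limma adjusted p = 0.961). The median difference over all genes had the same sign, −0.08 for contralateral and −0.11 for ipsilateral against equatorial ICSI, and the equatorial libraries were the shallowest.

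The members did not vary as 1 block between embryos. Over the 28 pairs of members the median Spearman correlation of embryo levels was 0.07 (n = 55 embryos; lowest −0.45, highest 0.68), where pairs of any 2 genes tested had a median of 0.00 with 5% and 95% points at −0.29 and 0.30. The 6 pairs within the core had a median of 0.12. Ooep and Nlrp4f were the closest pair, at 0.68 over all embryos, 0.71 on plate 1 (n = 42) and 0.43 after levels were centred within site and plate. Khdc3 with Padi6 (0.40) and Nlrp5 with Tle6 (0.38) followed, and Nlrp2 with Zbed3 was the most negative (−0.45). The points share libraries and depth, and the correlations are descriptions.

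The log2 ratios of sisters gave a like picture, with a median uncentred correlation of 0.02 over the 28 pairs. The sister with more Nlrp4f also had more Zbed3 in 42 of 55 embryos (correlation 0.42), and for Ooep with Nlrp4f it was 34 of 55 (0.37). Nlrp2 and Nlrp4f went apart, with the same sister higher in 17 of 55 (−0.43). All values in a library share its total count, and the part of this in the correlations was not tested.

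The 5 genes outside the complex whose level was most like the mean log level of the 4 core genes were Oas1c (Spearman correlation 0.56 over 55 embryos), Hist4h4 (0.52), Acat1 (0.50), C87977 (0.47) and Vps26c (0.47), where the median gene had 0.00. They are the highest of 13070 genes ranked, and picking the top of so many raises the values by itself. How high such a top would lie without any likeness was not tested. For sister ratios the 5 nearest, led by Olfr766-ps1 (0.69), had medians of 0 to 1.08 CPM, and a correlation in such sparse counts is not a finding.

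**Figure D4:**
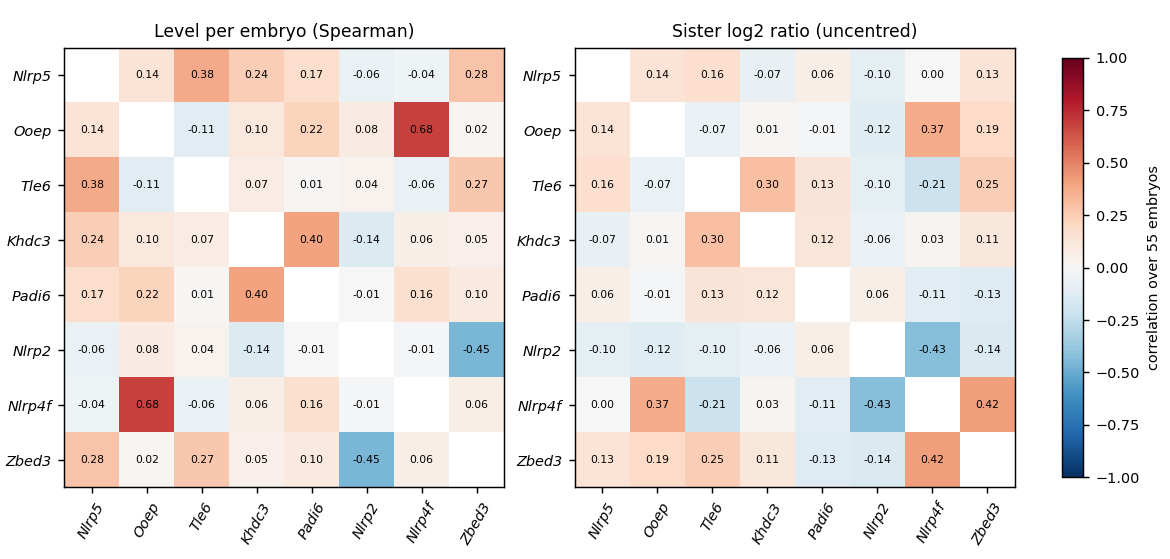
Correlation between each pair of members over 55 embryos: left, Spearman correlation of the level per embryo; right, uncentred correlation of the log2 ratio between sisters (colour scale from −1 to 1). Most cells are pale; Ooep with Nlrp4f (0.68) is the strongest pair on the left, and Nlrp4f with Nlrp2 (−0.43) and with Zbed3 (0.42) stand out on the right.

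In blastocysts Khdc3 had risen, Ooep was lower, and the other 6 transcripts were at low levels or at 0. Ooep, Tle6, Nlrp4f and Zbed3 were, like Khdc3, counted in 19 of 19 twin pairs. Khdc3 is known to be expressed in pluripotent stem cells as well as in oocytes. Its level was 0 to 68.998 CPM in 2-cell embryos (median 23.9), 32.1 to 675 in intact blastocysts (median 280, n = 31) and 693 to 1026 in twin pairs (median 819, n = 19). Of the intact blastocysts 28 of 31, and of the twin pairs 19 of 19, lay above the highest 2-cell embryo. Over summed counts this was 13.2-fold higher in intact blastocysts and 32.2-fold higher in twin pairs. Folds over summed counts, here and below, take no account of plate. The edgeR fit with a plate term, estimated from the 2-cell embryos because all blastocysts were on plate 2, gave a log2 fold change of 2.94 ± 0.37 (SE; adjusted p = 2.2e-11). Khdc3 made up a median of 0.597% of the members' summed CPM in 2-cell embryos, 87.4% in intact blastocysts and 89.1% in twin pairs.

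The 6 transcripts other than Khdc3 and Ooep were lower by unequal amounts. Zbed3 went from a median of 3030 CPM to 14.9 in intact blastocysts (0 to 51.7) and 5.34 in twin pairs (0.834 to 11.4), and over summed counts was 178-fold and 546-fold lower. Nlrp4f went from a median of 501 to 1.87 (0 to 23.3) and 5.15 (0.488 to 15.5). Padi6 went from 94.1 to 1.22 (0 to 23.1) and 6.26 (0 to 17.4), and Tle6 from 77.2 to 2.21 (0 to 30.8) and 9.04 (1.25 to 20.8). Not 1 of the 31 intact blastocysts reached the lowest 2-cell embryo for Zbed3, Nlrp4f, Padi6, Nlrp5 or Nlrp2, whereas for Tle6 4 of 31 overlapped with the 2-cell range. The share of all genes that separate the stages in this way was not computed. In edgeR 77.7% of the 12645 genes tested were called between the stages. Nlrp5 was counted in 3 of 31 intact blastocysts, with 5 counts in all, and in 5 of 19 twin pairs, where the highest was 5.37 CPM. Nlrp2 was at 0 in 31 of 31 intact blastocysts, at least 303-fold lower than in 2-cell embryos when set against a floor of 3 counts over the group (0.136 CPM), and was counted in 2 of 19 twin pairs. Of the core, Khdc3 RNA was thus higher in blastocysts, some Ooep RNA and a little Tle6 RNA were still counted, and Nlrp5 RNA was at or near 0. Whether the RNA was inherited or newly made was not tested.

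Ooep fell least in twin pairs. In intact blastocysts its edgeR change and that of Tle6, given below, overlapped within their SE. Ooep ranged from 0 to 76.95 CPM in intact blastocysts with a median of 10.8 (6 of 31 at 0). In twin pairs it ranged from 44.9 to 90.6 with a median of 72.7, against 68.5 to 321 at the 2-cell stage. Only 8 of 19 twin pairs lay below the lowest 2-cell embryo, against 30 of 31 intact blastocysts. The edgeR log2 fold change of intact blastocysts against 2-cell embryos was −3.57 ± 0.28 for Ooep, −3.94 ± 0.31 for Tle6, −5.09 ± 0.32 for Padi6, −7.20 ± 0.27 for Nlrp4f and −7.83 ± 0.20 for Zbed3. In this comparison 77.7% of the 12645 genes tested were called and the median of all genes was −0.40. In intact blastocysts alone 3 of the 8 members passed the filter on low counts. The others passed it through the 2-cell group, so their calls are no support. On plate 2 alone the calls split into 3966 higher and 3922 lower, against 3988 and 5833 with both plates, and the median of all genes was 0.08; Khdc3 was then at 2.91 and Ooep at −3.67. The same holds for the other oocyte genes, of which 15 of 15 maternal and 8 of 8 Nlrp genes were lower: in intact blastocysts alone 2 of the 15 and 1 of the 8 passed the filter on low counts. Of the 4 Khdc and Padi relatives tested 3 were lower and 1 was higher, with a median of −3.65. The higher one was Dppa5a (2.67), a KH-domain relative of Khdc3 and Ooep expressed in pluripotent cells.

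**Figure D5:**
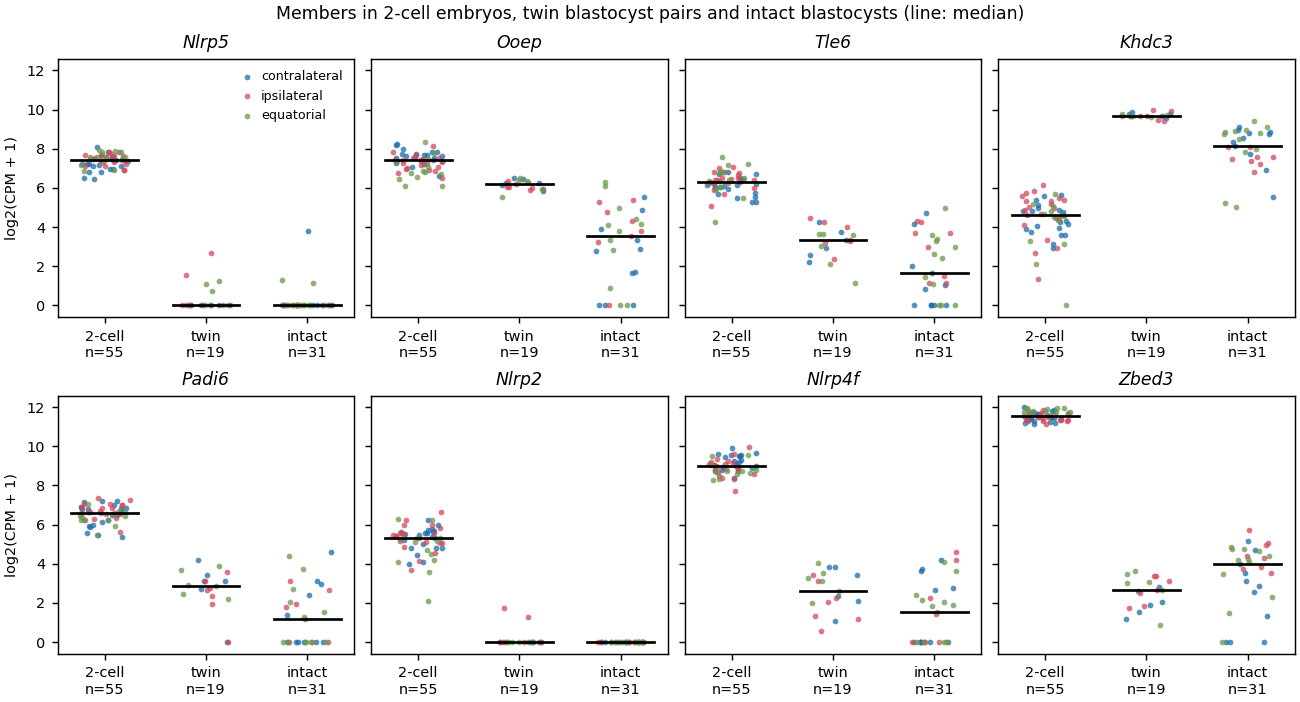
Level of each gene, as log2(CPM + 1) on the y axis, in 2-cell embryos (n = 55), twin blastocyst pairs (n = 19) and intact blastocysts (n = 31). Points are embryos coloured by ICSI site and lines are medians. Khdc3 is the one panel in which the medians of both blastocyst groups lie above that of the 2-cell embryos, with 3 of 31 intact blastocysts within the 2-cell range. Ooep, Tle6, Nlrp4f and Zbed3 were also counted in 19 of 19 twin pairs.

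Twin blastocysts held more Khdc3 and Ooep and less Zbed3 than intact ones. The twin pairs lay above the highest intact blastocyst for Khdc3 (693 against 675 CPM), while those for Ooep and Zbed3 overlapped. The edgeR log2 fold change, twin against intact with site as covariate, was 1.41 ± 0.21 for Khdc3 (adjusted p = 3.61e-07), 1.98 ± 0.33 for Ooep (adjusted p = 1.35e-06) and −1.65 ± 0.37 for Zbed3 (adjusted p = 0.000205). These were the 3 members that passed the filter on low counts, and 42.3% of all 9379 genes tested were called, 1909 higher and 2058 lower (2155 and 1845 with RLE factors). Without the 5 intact blastocysts under 400000 counts the values were 1.38, 1.78 and −1.80. Epiblast markers had a positive change in 7 of 7 genes, and 5 were called higher, among them Pou5f1 (1.70) and Tdgf1 (1.77). Of 8 trophectoderm markers 2 were called higher, Cdx2 by 1.41, and 4 lower, with Tfap2c at −1.34 and Eomes at −1.08. Dppa3, a maternal and germline gene, was higher by 2.79 and Dppa5a lower (−0.35). Summed trophectoderm markers ranged from 3953 to 5167 CPM in twin pairs and from 4235 to 7794 in intact blastocysts, and epiblast markers from 389 to 775 and from 28.05 to 546; the part of the cell type shares in the members' difference was not tested. A twin pair is also deeper than an intact blastocyst, with medians of 2200256 and 705837 counts.

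Twins of a pair held Khdc3 in nearly equal amounts. The RMS log2 ratio between twins was 0.21 for Khdc3 (19 pairs), of which counting gives 0.07, and 0.45 for Ooep, of which counting gives 0.23, where the median gene had 0.86. Genes of a like count had a median of 0.22 for Khdc3 (152 genes) and 0.66 for Ooep (2531 genes), so the spread of Khdc3 was that of other genes of its abundance. Zbed3 (2.49), Nlrp4f (2.76), Padi6 (2.38 in 17 pairs) and Tle6 (2.98) lay further apart, at means of 6.29 to 11.1 counts per twin. Genes of a like count had medians of 2.48, 2.41, 2.35 and 2.10 for these 4 in the same order, and 92.8% of those around Tle6 had a smaller RMS than Tle6. Between the twins of a pair the Khdc3 spread was 0.793 times that between unrelated twins of the same site, and that of Ooep 0.918 times. Such ratios were computed for the members only.

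No member differed between ICSI sites in blastocysts at the threshold. In intact blastocysts edgeR called 0% of 9165 genes for contralateral against equatorial, 0% for ipsilateral against equatorial and 0% for contralateral against ipsilateral ICSI, although 629, 338 and 522 genes had an unadjusted p under 0.05. The calls of DESeq2 were 1, 0 and 0. In twin pairs edgeR called 0% of 10995 genes in each of the same comparisons, although 728, 426 and 754 genes had an unadjusted p under 0.05. The calls of DESeq2 were 9, 1 and 1. For Khdc3 the intact ipsilateral blastocysts held 113 to 269 CPM (median 182, n = 8), against 45.7 to 555 (median 379, n = 11) after contralateral and 32.1 to 675 (median 433, n = 12) after equatorial ICSI. All ipsilateral values lay within the range of the other groups, and the edgeR log2 fold change of ipsilateral against equatorial was −1.02 ± 0.40 (unadjusted p = 0.0148, adjusted p = 1.00). In twin pairs the medians of Khdc3 were 847 (contralateral), 815 (ipsilateral) and 816 CPM (equatorial), with log2 fold changes against equatorial of 0.07 ± 0.09 and 0.01 ± 0.08 in edgeR. The difference between twin and intact blastocysts in the ipsilateral against equatorial change of Khdc3, a comparison chosen after the data were seen, was 1.02 (edgeR unadjusted p = 0.0486, adjusted p = 1.00). Ooep in twins had medians of 75.2, 64.7 and 80.1 CPM after contralateral, ipsilateral and equatorial ICSI, and its higher 2-cell level after contralateral ICSI had no counterpart that passed the test in blastocysts (0.09 ± 0.18 in twins, adjusted p = 0.953, and −0.94 ± 0.69 in intact blastocysts, adjusted p = 0.831, both edgeR). With 6 to 12 embryos a group and standard errors of 0.35 to 0.76 for members in intact blastocysts, differences of the size seen in 2-cell embryos were not detectable there.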

How the data were processed

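Single blastomeres and single blastocysts were copied to cDNA with the SMART-Seq Single Cell Kit and made into Nextera XT libraries. They were sequenced on a NovaSeq, blastomeres on 2 plates and blastocysts on plate 2. The paper describes 2 blastomere datasets, of longer paired-end and of 100-base single-end reads, and only single-end reads for blastocysts. How far plates and datasets coincide was not tested. The authors trimmed reads (Trimmomatic 039, FastQC 0.12.1), kept the first 100 bases of first reads and aligned them with STAR 2.7.10b in SmartSeq mode, unstranded, to GRCm38 with GENCODE M23 (versions per the submitters' processing notes). The authors deposited counts per gene, whole numbers without normalization, of 125 blastomeres and 69 blastocysts. The labels of a matrix with the same entries name exact deduplication, so reads with identical ends may have been counted once.

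CPM, and TPM from GENCODE M21 exon lengths, were computed here. Blastomeres needed 9500 detected genes and blastocysts 4000, which left 55 of 62 sister pairs. The study also filtered blastomeres on mitochondrial counts. That filter was not applied here, and a limit of 2%, met by 48 pairs, was an alternative. The embryo was the replicate. The tests were edgeR 4.0.16 (TMM, filterByExpr, quasi-likelihood, robust, Benjamini-Hochberg over all genes tested, threshold 0.05) and, for sister spread, limma 3.58.1 on absolute log2 ratios with 0.5 counts added, with plate as covariate in 2-cell embryos. Scripts were tested on simulated data. Alternatives were RLE factors, DESeq2 1.42.0, no low-count filter, no plate term, plate 1 or 2 alone, depth covariates, other pair filters and the rank-sum test. The 8 members and all gene lists were chosen with earlier results of these data known. Named were the members in every comparison, up to 4 called genes per list with the largest change, and the 5 genes most like the core. No 2 libraries were identical. Software was R 4.3.3 and Python 3.11.15.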

Additional observations from a re-analysis of the deposited data

Results flagged for a closer look

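Of 27 groups of embryos checked for a single extreme value, 1 held one: among the 7 ipsilateral twin pairs, the highest Nlrp5 value was 5.37 CPM, the next 1.89 CPM and 5 of the 7 were at 0. The gap to the next value was 0.648 of the whole range. By chance about 1 group in 20 is picked out in this way where values are normally distributed. With 5 of the 7 at 0 that rate does not hold for this group, and the value rests on few counts. Larger groups were not checked, which leaves out all 2-cell embryos and the contralateral and equatorial intact blastocysts.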

How the results depend on the processing

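Of 454 values of single genes under other settings, 432 kept their direction and their side of the threshold, 3 passed it newly, 2 lost it and 17 changed sign, none of the 17 called; of 178 values of whole comparisons, 155 stayed and 23 moved. Cases past or short of the threshold were Nlrp4f, called with DESeq2, on plate 1 and with every complete pair (edgeR adjusted p = 0.0149), Ooep, lost in the rank-sum test, and Zbed3 after ipsilateral ICSI, lost with depth covariates. The members called were then 1 (contralateral against equatorial, rank-sum) and 0 (ipsilateral against equatorial, depth covariates). The cause was not tested.

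Without the low-count filter, genes called numbered 3930, 2603 and 1577 in the 2-cell comparisons, 1 for ipsilateral against equatorial twins, 6385 for twin against intact and 16044 between stages. The 48 pairs under the mitochondrial limit gave 1104 for contralateral against equatorial, and for ipsilateral against equatorial depth covariates gave 61 and the rank-sum test 1342. In blastocysts DESeq2 called 1 (intact, contralateral against equatorial), 9, 1 and 1 (twins). For sister spread, contralateral and ipsilateral against equatorial, the calls were 17 and 25 with 5 counts added, 22 and 11 on plate 1, 9 and 7 with the smaller total as covariate, and 2 and 2 with every pair. The split of calls into higher and lower moved from 936 and 797 to 642 and 1282 in the rank-sum test (contralateral against equatorial).

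Changes of sign were, between sites: Khdc3, contralateral against equatorial, −0.061 (every pair) and −0.087 (rank-sum); Zbed3, between the poles, −0.015 (mitochondrial limit), −0.057 (depth covariates) and −0.013 (rank-sum); and Nlrp2, between the poles, 0.041 (every pair) and 0.058 (depth covariates). For sister spread they were, contralateral against equatorial, 0.018 for Khdc3 and 0.040 for Zbed3 (plate 1) and 0.065 for Zbed3 (smaller total); ipsilateral against equatorial, −0.011 for Zbed3 (plate 1) and 0.028 for Padi6 (every pair); and between the poles −0.051 for Khdc3 (5 counts added) and, on plate 1, 0.026 for Ooep, 0.071 for Padi6, 0.29 for Nlrp2 and 0.051 for Zbed3. No paired analysis was possible because the groups share no embryo numbers. Depth limits Khdc3 and Nlrp2 in blastomeres (medians of 28.5 and 47.5 counts) and most members in blastocysts, where Khdc3, and Ooep in twins, had higher counts.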

Other observations

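Among the 31 intact blastocysts, the Ooep level was related to depth and to cell type markers by Pearson's r, but no rank correlation passed the threshold. The part of depth in the relations with markers was not tested. Pearson's r with the total count was 0.65 (adjusted permutation p = 0.00192 over 16 relations; Spearman's rho 0.48, adjusted permutation p = 0.0591), and r was 0.54 without the 2 farthest embryos. With the summed trophectoderm markers r was −0.57 (adjusted permutation p = 0.00576; rho −0.51, adjusted permutation p = 0.0591; −0.43 without 2 embryos), and with the summed epiblast markers it was 0.48 (adjusted permutation p = 0.0334; rho 0.40, adjusted permutation p = 0.105; 0.31 without 2). In the 19 twin pairs r of Ooep with the total count had the opposite sign, −0.51 (unadjusted permutation p = 0.0234, adjusted 0.0934; rho −0.49, adjusted permutation p = 0.105; −0.42 without 2), and it was 0.24 with trophectoderm and 0.13 with epiblast markers. Khdc3 passed in none of its 8 relations, with r between −0.10 and 0.37 and adjusted permutation p of 0.116 or more. The relations share libraries and were computed over all sites together.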
